A study of Mus musculus with 12 samples.

Results

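The transcripts described here encode 10 proteins that circulate in fetal plasma or carry other molecules there, chosen by name: Afp, Alb, Gc, Ahsg, Fetub, Hpx, Apoh, Vtn, Clu and Gsn. Each was found on the array by its gene name, 1 probe per gene among the 41174 probes for transcripts, with Alb and Hpx listed under the older names Alb1 and Hpxn. All 10 were among the 13896 genes that could be tested, and all 10 probes were well above background in both channels on all 12 arrays. RNA came from mouse yolk sacs on a CD1 background at embryonic day 8.5 (E8.5) or E9.5, either wild type or homozygous for the V1068G substitution in Arid1a (Baf250a), which encodes a subunit through which SWI/SNF chromatin remodellers contact DNA. Each of the 4 groups had 3 biological replicates, with nothing in the labels on whether tissue was pooled. Every array set yolk sac RNA in Cy5 against the same reference RNA in Cy3, prepared from whole wild-type neonatal mice of mixed 129Sv and C57BL/6 background. Dyes were not swapped. A value is given as the log2 ratio of yolk sac over reference, normalized within each array against the trend of ratio with brightness. A value of 0 thus means a ratio on that trend, not necessarily the same signal in both. Each ratio is therefore relative to a neonatal animal, which includes liver.

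The visceral endoderm, the outer cell layer of the yolk sac, does the work of a liver before the fetal liver takes over: it secretes alpha-fetoprotein, transport proteins, apolipoproteins and protease inhibitors, and takes up maternal protein by endocytosis. Afp and Alb are neighbouring genes of one family, and Afp is the family's fetal member. In the hepatocyte lineage FOXA and C/EBP factors act at the promoters of these genes. Markers of the labelled tissue were present: all 12 visceral endoderm markers were measured, with a mean log2 ratio of 1.78 to 2.25 over the arrays, while 9 measured enzymes of mature hepatocytes had means of -2.41 to -2.13.

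The promoters of Afp and Alb are shown because these adjacent genes of one family had very different ratios and a different course from E8.5 to E9.5. Both windows are the 250 bases before the start site in RefSeq (GRCm38.p6), on the plus strand: chr5:90490464-90490713 for Afp and chr5:90460620-90460869 for Alb. Capitals mark matches to the CCAAT box and to the TATA box, common promoter elements, on either strand.
Afp: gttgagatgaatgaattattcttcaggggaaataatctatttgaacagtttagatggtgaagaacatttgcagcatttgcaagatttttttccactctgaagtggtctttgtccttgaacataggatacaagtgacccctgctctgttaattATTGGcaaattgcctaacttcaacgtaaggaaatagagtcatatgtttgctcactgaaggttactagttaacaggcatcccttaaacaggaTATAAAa
Alb: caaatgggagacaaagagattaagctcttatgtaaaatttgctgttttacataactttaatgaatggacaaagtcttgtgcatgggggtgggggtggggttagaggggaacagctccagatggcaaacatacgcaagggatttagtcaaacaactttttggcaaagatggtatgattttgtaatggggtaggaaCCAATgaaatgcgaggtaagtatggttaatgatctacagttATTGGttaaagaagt
Afp has 1 match to the CCAAT box, on the minus strand, whose leftmost base lies 98 bases before the start site, and 1 to the TATA box at 7 bases. Alb has a CCAAT box match on the plus strand at 56 bases, 1 on the minus strand at 15 bases, and 0 matches to the TATA box in this window. Bases after the annotated start site and other spellings were not searched, so this does not show that Alb lacks such an element. In all, 4 motifs were searched on both strands of 32851 promoter windows of this length, among them 12 windows of 9 genes of the set. For Clu the table has no entry. The CCAAT box, spelled CCAAT, occurred in 33.8% of all windows and in 7 of the 12. The TATA box, searched as TATAAA, occurred in 12.4% and in 3 of the 12. A GATA core, searched as AGATAA, occurred in 9.99% and in 0 of the 12. A FOXA core, searched as TGTTTAC, occurred in 3.17% and in 2 of the 12, a window of Fetub and that of Apoh. The Afp and Alb windows shown had 0 matches to the FOXA core in this spelling. Such matches are a description of letters and were not tested for binding here. In the same assembly Fetub directly follows Ahsg on chromosome 16, and Gc lies on chromosome 5 like Alb and Afp.

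Between E8.5 and E9.5 the transcripts of Afp and of Gsn, an actin-severing protein with a secreted plasma form, rose about equally in wild-type and mutant yolk sacs. Clu, an extracellular chaperone, also rose in both genotypes, and Vtn, an adhesive glycoprotein, rose in the mutant. None of the 10 differed between mutant and wild type by the test at either stage.

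**Figure D1:**
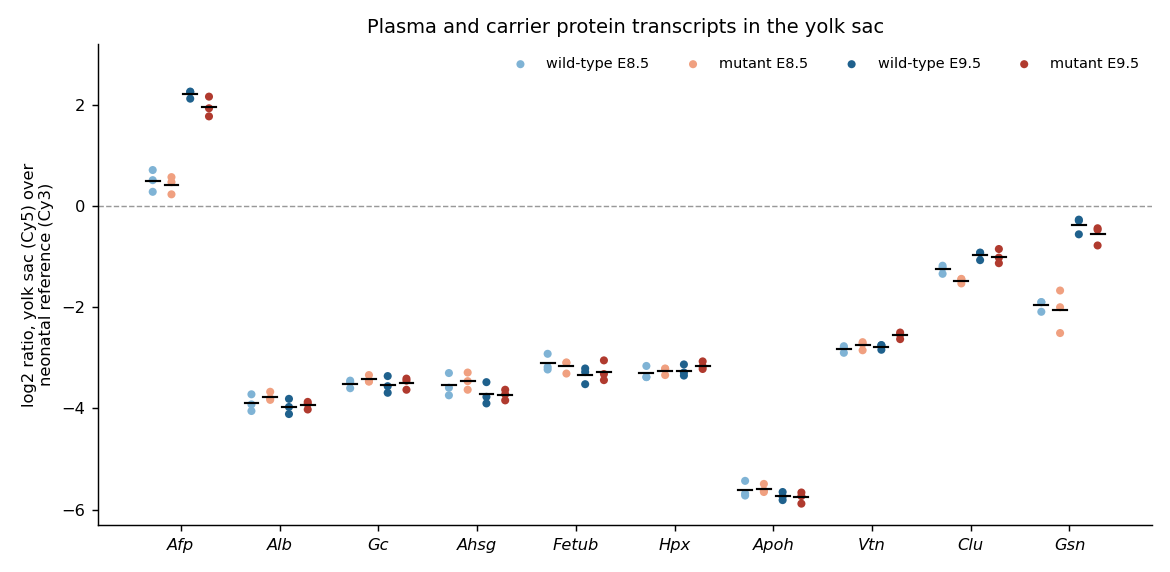
Log2 ratio of yolk sac (Cy5) over neonatal reference (Cy3) for each of the 10 genes, 1 point per array and 1 short black line for the mean of the 3 arrays of a group. Afp lies above 0 on every array, from 0.23 to 2.26, and the other genes lie below 0 on every array; Afp and Gsn are the genes with a clear step between stages.

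Afp encodes alpha-fetoprotein, the main fetal plasma protein of the albumin family. Its log2 ratios in the wild type were 0.71, 0.28 and 0.51 at E8.5 and 2.26, 2.25 and 2.12 at E9.5. In the mutant they were 0.23, 0.47 and 0.57 at E8.5 and 1.77, 2.16 and 1.93 at E9.5. Every E9.5 array was above every E8.5 array, whatever the genotype. From E8.5 to E9.5 Afp rose by 1.71 ± 0.11 in the wild type (SE; 3.27-fold; limma adjusted p = 3.69e-07) and by 1.53 ± 0.11 in the mutant (2.89-fold; adjusted p = 9.56e-07), on all 3 slides in both. The array carries 10 spots of the Afp probe, of which 7 to 10 were used per array, and their log2 ratios had an SD of 0.0103 to 0.0474 within an array.

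Both channels contributed to that rise, although the reference RNA is the same on every array. Net Cy5 intensities of Afp in the wild type were 32584, 22960 and 30562 units at E8.5 and 48861, 45087 and 44288 at E9.5. Net Cy3 intensities on the same arrays were 12442, 16021 and 12366 at E8.5 and 5120, 6234 and 6050 at E9.5. The reference signal was thus lower on every E9.5 array, where the yolk sac signal was higher. In the mutant the mean Cy5 intensity was 26964 ± 2552 at E8.5 and 43538 ± 2020 at E9.5, and the mean Cy3 intensity 15239 ± 1067 and 6919 ± 299 (SD, n = 3).

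With each channel normalized on its own, Cy5 rose by 0.56 ± 0.083 in the wild type (limma adjusted p = 0.000377) and by 0.58 ± 0.083 in the mutant (adjusted p = 0.000356). Cy3 fell by 1.13 ± 0.071 and 0.98 ± 0.071 (adjusted p = 7.34e-08 and 7.54e-07). The Cy3 falls of Afp were the largest among the 13896 genes tested. In the wild type Afp alone fell by 1 or more in Cy3, which is 0.0072% of genes, and in the mutant 0% did. The next largest Cy3 fall in both genotypes was that of Rbp4, the plasma carrier of retinol, named here after its values were seen, at -0.55 and -0.48. The stage difference of Afp in the ratio is therefore larger than that in the yolk sac channel by itself, and the cause of the Cy3 fall was not tested. No spot of any of the 10 genes was saturated.

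**Figure D2:**
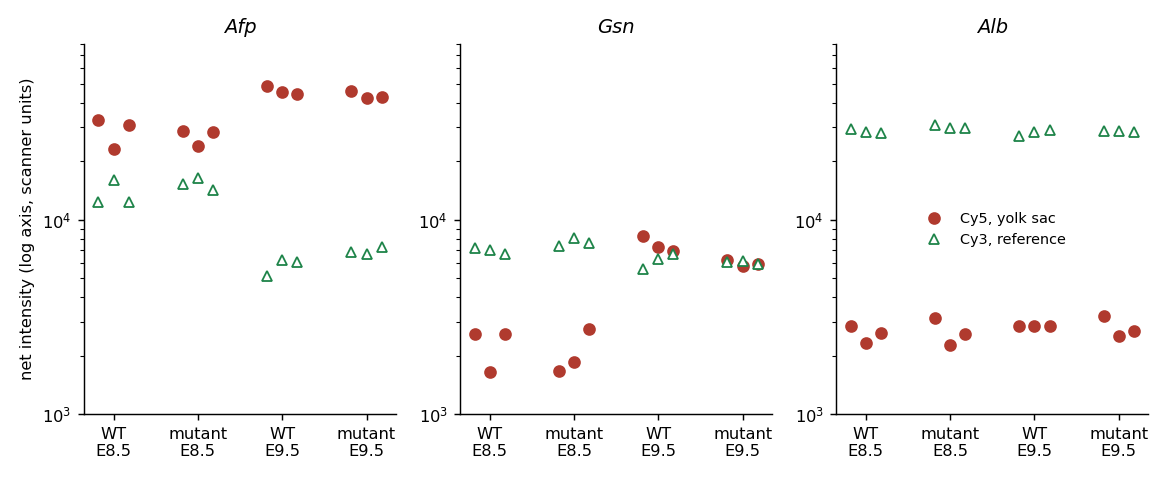
Net intensity of Afp, Gsn and Alb in Cy5 (yolk sac, filled circles) and Cy3 (reference, open triangles) on each of the 12 arrays, on a log axis in scanner units. In Afp the Cy3 signal lies between 12366 and 16348 on the E8.5 arrays and between 5120 and 7248 on the E9.5 arrays, while in Gsn and Alb it shows no such step.

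Gsn encodes gelsolin, an actin-severing and actin-capping protein with a cytoplasmic and a plasma form. Its log2 ratios in the wild type were -1.90, -2.09 and -1.90 at E8.5 and -0.27, -0.29 and -0.56 at E9.5. In the mutant they were -2.51, -2.0 and -1.67 at E8.5 and -0.78, -0.44 and -0.47 at E9.5. The stages did not overlap in either genotype, and mutant E8.5 had the widest spread of any group for this gene (SD 0.42, against 0.11 in wild-type E8.5). Gsn rose by 1.59 ± 0.16 in the wild type (3.01-fold; limma adjusted p = 1.42e-05) and by 1.5 ± 0.16 in the mutant (2.82-fold; adjusted p = 2.14e-05). In Cy5 alone the differences were 1.61 ± 0.17 and 1.49 ± 0.17, close to those of the ratio, and its Cy3 signal differed by -0.095 and -0.14. On every wild-type E9.5 array the net Cy5 signal of Gsn was above its net Cy3 signal (8274 and 5567, 7284 and 6309, 6890 and 6661 units). The same held for replicate 1 of mutant E9.5 (6238 and 6095). In replicates 2 and 3 of mutant E9.5 Cy5 was the lower (5759 and 6148, 5927 and 5928). The normalized ratios of all these arrays were nonetheless below 0. The plasma and the cytoplasmic form come from the same gene, and 1 probe does not tell them apart.

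Mesenchymal cells also express Gsn, and part of the connective tissue markers rose with stage. Of 8 mesenchyme markers 4 rose in the wild type and 4 rose and 1 fell in the mutant. Their stage differences ran from -0.21 to 1.87 in the wild type and from -0.28 to 1.23 in the mutant. Col1a1, a collagen chain, rose by 1.87 ± 0.11 and 1.12 ± 0.11 (limma adjusted p = 1.81e-07 and 1.09e-05). Between genotypes at E8.5, 3 of the 8 were called higher in the mutant, where 1.44% of all genes were called and Gsn differed by -0.094 (not called). The mean log2 ratio of the 8 lay between -2.57 and -2.37 on the wild-type E8.5 arrays and between -1.82 and -1.70 at E9.5, and between -2.29 and -2.10 and between -1.81 and -1.60 in the mutant. Of the 12 visceral endoderm markers 4 rose and 1 fell in each genotype, with means of 1.78 to 1.96 and 2.13 to 2.2 in the wild type and of 1.93 to 1.96 and 2.03 to 2.25 in the mutant. Those that rose were Rbp4, Apoa1, Apoa4 and Apob and the 1 that fell was Sox17, and all of these are counted again in the gene lists below. Rbp4 did not rise in Cy5 alone (-0.019 and -0.075). Of 7 parietal endoderm markers, basement membrane genes such as Lama1 and Col4a1 among them, 5 rose in wild-type and 2 in mutant yolk sacs and 0 fell, with means of -1.06 to -0.99 and then -0.86 to -0.71, and of -0.88 to -0.77 and then -0.81 to -0.64. Of all genes, 12.8% were called higher and 11% lower in the wild type, and 11% and 10.6% in the mutant. The part of these 3 marker sets in the stage differences of Afp and Gsn was not tested. In bulk tissue, fewer cells of a type and less RNA per cell cannot be told apart.

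Clu encodes clusterin, a secreted chaperone that binds misfolded proteins and lipids. Its log2 ratios in the wild type were -1.34, -1.22 and -1.18 at E8.5 and -0.92, -0.93 and -1.07 at E9.5. In the mutant they were -1.44, -1.45 and -1.53 at E8.5 and -1.13, -0.85 and -1.02 at E9.5. Clu rose by 0.28 ± 0.074 in the wild type (1.21-fold; limma adjusted p = 0.0148) and by 0.47 ± 0.074 in the mutant (1.39-fold; adjusted p = 0.000487), with no overlap between stages and a rise on 3 of 3 slides in each. The wild-type rise no longer passed when replicate 1 of wild-type E8.5 was left out (0.23, adjusted p = 0.0624), or replicate 1 (0.25, 0.0638) or 2 (0.25, 0.0501) of wild-type E9.5. In the Cy5 channel alone the differences were 0.34 and 0.49, beside 0.56 and 0.58 for Afp.

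Vtn encodes vitronectin, an adhesive plasma and matrix protein that binds integrins and PAI-1. Its log2 ratios in the wild type were -2.77, -2.80 and -2.90 at E8.5 and -2.75, -2.75 and -2.84 at E9.5, overlapping between stages. In the mutant they were -2.85, -2.69 and -2.72 at E8.5 and -2.63, -2.50 and -2.54 at E9.5, without overlap. The stage difference was 0.046 ± 0.061 in the wild type (limma adjusted p = 0.635) and a rise of 0.20 ± 0.061 in the mutant (1.15-fold; adjusted p = 0.0325). This small rise no longer passed without replicate 1 (0.15, adjusted p = 0.137) or 3 (0.22, 0.0586) of mutant E8.5, or replicate 2 (0.17, 0.117) or 3 (0.19, 0.0922) of mutant E9.5. The difference between the 2 stage differences is the interaction, 0.15 ± 0.087 (adjusted p = 0.923), so Vtn was not shown to behave differently in the mutant.

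In the wild type, 3 of the 10 genes rose from E8.5 to E9.5 and 0 fell, where 12.8% of all genes were called higher, 11% lower and 23.8% called in either direction. In the mutant, 4 rose and 0 fell, where 11% were called higher, 10.6% lower and 21.6% in either direction. With the replicate number as a block, 3 rose and 1 fell in the wild type and 4 rose and 2 fell in the mutant. Those that fell were Fetub in the former and Ahsg and Apoh in the latter. The median difference of the 10 was 0.009 in wild-type and 0.014 in mutant yolk sacs, against -0.011 and -0.0084 for all genes. The stages did not overlap for 3 of the 10 in the wild type and for 6 in the mutant, against 37.5% and 38.5% of all genes. The 6 in the mutant include Alb and Apoh, which were lower at E9.5 (-0.17 each) and not called. The wild-type and mutant comparisons use different arrays. With median centring in place of loess, the median of all genes moved to 0.11 in wild-type and 0.14 in mutant yolk sacs, and the stage calls split into 1381 higher and 77 lower in the wild type (1783 and 1525 with loess) and 1678 and 78 in the mutant (1522 and 1476). Relative to that median, Afp differed by 1.79 and 1.66, Gsn by 1.77 and 1.69, Clu by 0.35 and 0.56 and Vtn by 0.12 and 0.30.

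**Figure D3:**
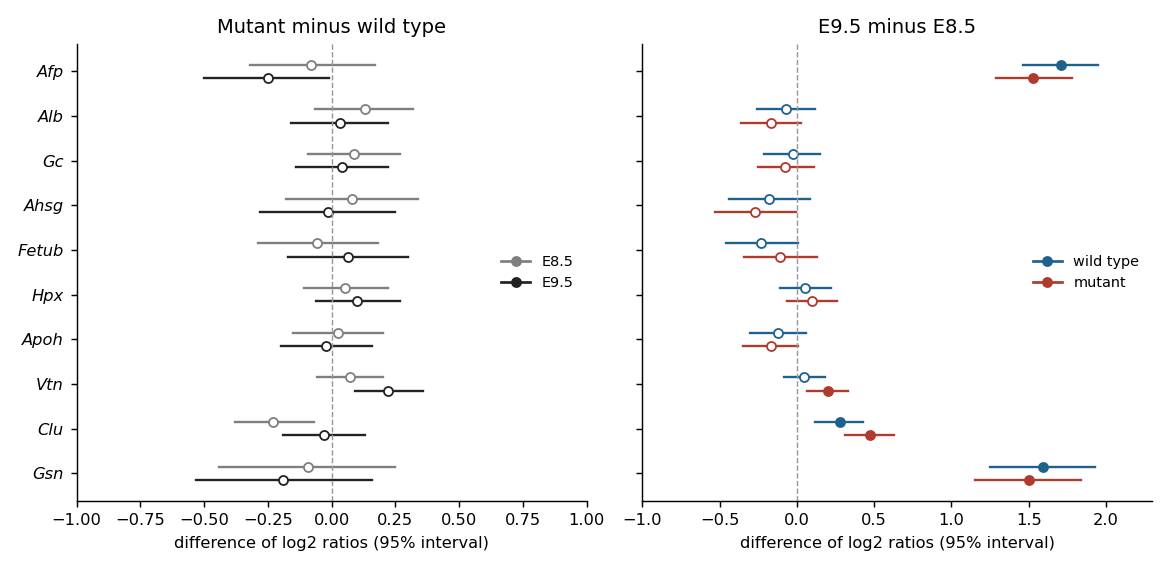
Differences of log2 ratios with 95% intervals for the 10 genes, mutant minus wild type on the left and E9.5 minus E8.5 on the right. Filled points passed the test (limma adjusted p under 0.05) and open points did not; all points on the left are open, and on the right Afp, Gsn and Clu are filled in both genotypes and Vtn in the mutant.

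The other 6 genes, whose products are carriers and inhibitors known best from adult liver, had far less signal in the yolk sac than in the neonatal reference. None had a called stage difference with the main settings, though some alternatives gave such a call for Ahsg, Fetub, Hpx or Apoh, as given below. A low ratio did not mean a dim yolk sac signal in all 6. Net Cy5 was 2273 to 3211 units for Alb and 2866 to 3651 for Ahsg, beside 27008 to 30479 and 27179 to 28945 in Cy3. For Gc and Apoh net Cy5 was 64 to 116 and 53 to 80 units. Alb encodes albumin, the main adult plasma carrier of fatty acids and other small molecules. Its log2 ratios in the wild type were -3.92, -3.72 and -4.05 at E8.5 and -4.11, -3.81 and -3.97 at E9.5, and in the mutant -3.83, -3.67 and -3.80 and then -4.02, -3.87 and -3.91. Averaged over the 12 arrays its ratio was 0.0675 on the linear scale, and 0.504% of genes had a lower one. The stage difference was -0.069 in the wild type (95% interval -0.26 to 0.12; limma adjusted p = 0.624) and -0.17 in the mutant (-0.36 to 0.026; adjusted p = 0.219). In Cy5 alone Alb differed by 0.02 and 0.055, where its neighbour Afp rose by 0.56 and 0.58, and relative to the shifted median of the centred data the ratio differences of Alb were 0.042 and -0.024.

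Gc, the vitamin D binding protein and a scavenger of actin, is the third member of the albumin family here. Its log2 ratios lay between -3.69 and -3.34 over the 12 arrays. The stage difference was -0.028 (95% interval -0.21 to 0.15) in wild-type and -0.075 (-0.25 to 0.11) in mutant yolk sacs. Afm, the vitamin E carrier next to Afp, completes the 4 genes listed for the family, with differences of -0.018 ± 0.10 and 0.14 ± 0.10 (limma adjusted p = 0.913 and 0.34). Afp was the only 1 of the 4 that rose.

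Ahsg and Fetub encode the fetuins, cystatin-domain plasma proteins of which Ahsg binds calcium phosphate and Fetub inhibits proteases of the astacin family. The log2 ratios of Ahsg were -3.59, -3.30 and -3.74 in wild-type E8.5, -3.90, -3.48 and -3.77 in wild-type E9.5, -3.63, -3.29 and -3.46 in mutant E8.5 and -3.84, -3.63 and -3.72 in mutant E9.5. The stage difference of Ahsg was -0.18 ± 0.12 in the wild type (limma adjusted p = 0.332) and -0.27 ± 0.12 in the mutant (adjusted p = 0.139). With the replicate number, which is also the slide, as a block, the mutant difference of -0.27 had an adjusted p of 0.0124. Fetub was dim in the yolk sac channel, at 14 to 23 units, and differed by -0.23 ± 0.11 in the wild type (adjusted p = 0.155; 0.0218 with the block) and -0.11 ± 0.11 in the mutant (adjusted p = 0.555). In the authors' deposited ratios, made without the offset that compresses dim probes, the wild-type difference of Fetub was -0.65 (limma adjusted p = 0.048). Relative to the shifted median of the centred data, Ahsg differed by -0.06 and -0.13 and Fetub by -0.20 and -0.064. Kng1, kininogen, a relative of the fetuins, rose in both genotypes, by 0.62 ± 0.065 and 0.70 ± 0.065 (adjusted p = 2.26e-05 and 6.92e-06).

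Hpx, hemopexin, binds free heme for transport to the liver, and haptoglobin (Hp) does the same for hemoglobin. Hpx had log2 ratios of -3.38 to -3.07 and Cy5 intensities of 27 to 49 units. Its stage difference was 0.054 ± 0.076 in wild-type and 0.10 ± 0.076 in mutant yolk sacs (limma adjusted p = 0.658 and 0.392), and the latter was 0.30 with median centring (adjusted p = 0.0372), or 0.16 relative to the shifted median. Apoh, beta-2-glycoprotein I, binds anionic phospholipids. Its log2 ratios, -5.88 to -5.43, are near the bottom of the array: 0.0216% of genes had a lower mean ratio, and its mean ratio was 0.0196 on the linear scale. The stage differences of Apoh were -0.12 ± 0.083 and -0.17 ± 0.083 (limma adjusted p = 0.319 and 0.169), the latter with an adjusted p of 0.0424 under the block and -0.084 relative to the shifted median.

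These 6 genes varied together from array to array. After subtraction of the group mean, the 15 pairs among Alb, Gc, Ahsg, Fetub, Hpx and Apoh correlated with r from 0.64 to 0.97 (median 0.84) over the 12 arrays, which share slides and reference RNA. All 4 arrays of replicate 2, which lie on 1 slide, were above their group mean, by 0.10 to 0.16 for the mean of the 6, and all 4 of replicate 1 were below it. Other genes of low ratio did the same: the mean deviation of 132 other genes in the lowest 1% of mean ratio had r = 0.93 with Alb, 0.95 with Ahsg, 0.94 with Apoh, 0.92 with Hpx, 0.85 with Fetub and 0.70 with Gc, and of 0.61 with Vtn, 0.33 with Clu, 0.21 with Gsn and -0.036 with Afp. The deviations of these 6, and in part those of Vtn, were thus shared with other genes of low yolk sac over reference ratio. Their source was not tested.

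**Figure D4:**
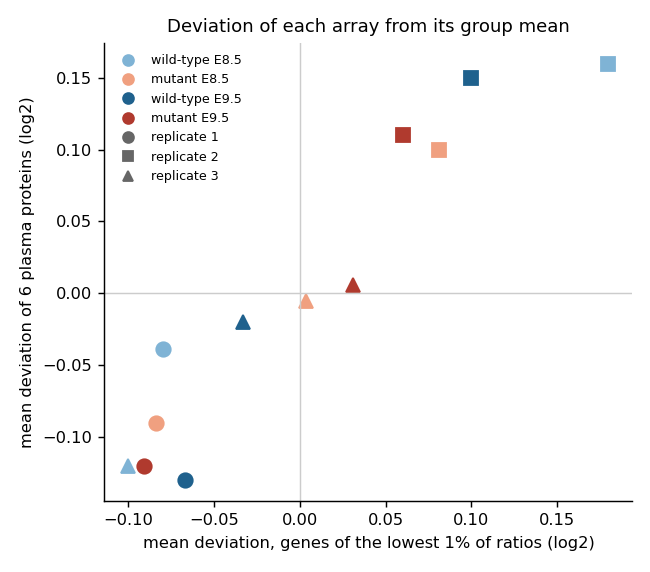
Deviation of each array from its group mean, for the mean of Alb, Gc, Ahsg, Fetub, Hpx and Apoh (vertical axis) against the mean of 132 other genes in the lowest 1% of log2 ratio (horizontal axis), both on the log2 scale, with colour for the group and shape for the replicate. The replicate 2 arrays of all 4 groups lie at the upper right, from 0.10 to 0.16 on the vertical axis, and the replicate 1 arrays at the lower left.

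The comparison of mutant with wild type asks whether the DNA-binding domain of ARID1A affects these transcripts. At E8.5, 0 of the 10 were called by limma, where 1.44% of all genes were (200 of 13896, with 1721 at an unadjusted p under 0.05). At E9.5, 0 of the 10 were called, where 1.99% of genes were (277, with 1661 at an unadjusted p under 0.05). The median difference of the 10 was 0.04 at E8.5 and 0.0081 at E9.5, against 0.0019 and 0.0002 for all genes. Counts of 0 also came from each of the other processing choices tried, the deposited ratios and the Cy5 channel alone included. The p-values rest on the spread between replicates pooled over all 4 groups and moderated by that of all genes, not on the spread of the 2 groups compared. The main fit has no term for the slide.

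The 95% intervals give the size of difference that these arrays leave possible. For Alb they ran from -0.064 to 0.32 at E8.5 and from -0.16 to 0.22 at E9.5, and for Gc from -0.094 to 0.27 and from -0.14 to 0.22. For Gsn, which varied more, they ran from -0.44 to 0.25 and from -0.53 to 0.16. Afp differed by -0.079 ± 0.11 at E8.5 (-0.32 to 0.17; adjusted p = 0.853). At E9.5 it differed by -0.25 ± 0.11 (-0.50 to -0.0093; limma adjusted p = 0.392), lower on 3 of 3 slides, by 0.49, 0.09 and 0.19, though the groups overlapped. Most of this E9.5 difference lay in the reference channel, where Cy3 differed by 0.21 ± 0.071 (adjusted p = 0.293) and Cy5 by -0.064 ± 0.083 (adjusted p = 0.821).

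Groups did not overlap between genotypes for 1 of the 10 genes at each stage, where 17.9% of all genes did not overlap at E8.5 and 17.3% at E9.5. At E8.5 this was Clu, lower in the mutant on 3 of 3 slides with a difference of -0.23 ± 0.074 (-0.38 to -0.068; limma adjusted p = 0.184). At E9.5 it was Vtn, higher in the mutant on 3 of 3 slides with a difference of 0.22 ± 0.061 (0.093 to 0.36; adjusted p = 0.0885). Neither passed the threshold. The interaction, which asks whether the mutant effect changed between stages, was called for 0 of the 10 and for 0% of all genes by limma (795 genes at an unadjusted p under 0.05), and was largest for Clu, at 0.20 ± 0.10 (adjusted p = 0.903).

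The other plasma carriers and inhibitors, 29 of 32 listed genes with a measurement, show what the same tissue did beyond these 10. From E8.5 to E9.5, 13 rose and 0 fell in the wild type and 14 rose and 0 fell in the mutant, with median differences of 0.24 and 0.20, where 12.8% and 11% of all genes were called higher and 11% and 10.6% lower. Serpind1, heparin cofactor II, rose by 1.56 ± 0.10 and 1.74 ± 0.10 (limma adjusted p = 1.95e-07 and 7.25e-08). Trf, transferrin, the iron carrier, rose by 1.04 ± 0.10 and 1.05 ± 0.10, and Serpinf2, the plasmin inhibitor, by 1.06 ± 0.077 and 1.1 ± 0.077. Of those that rose, 12 of 13 and 13 of 14 also rose in the Cy5 channel alone. The exception in both was Rbp4, which rose by 0.70 ± 0.10 and 0.66 ± 0.10 in the ratio but differed by -0.019 and -0.075 in Cy5. Ttr, transthyretin, which carries thyroxine and the Rbp4 protein, was not called (0.11 in wild-type and 0.18 in mutant yolk sacs).

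**Figure D5:**
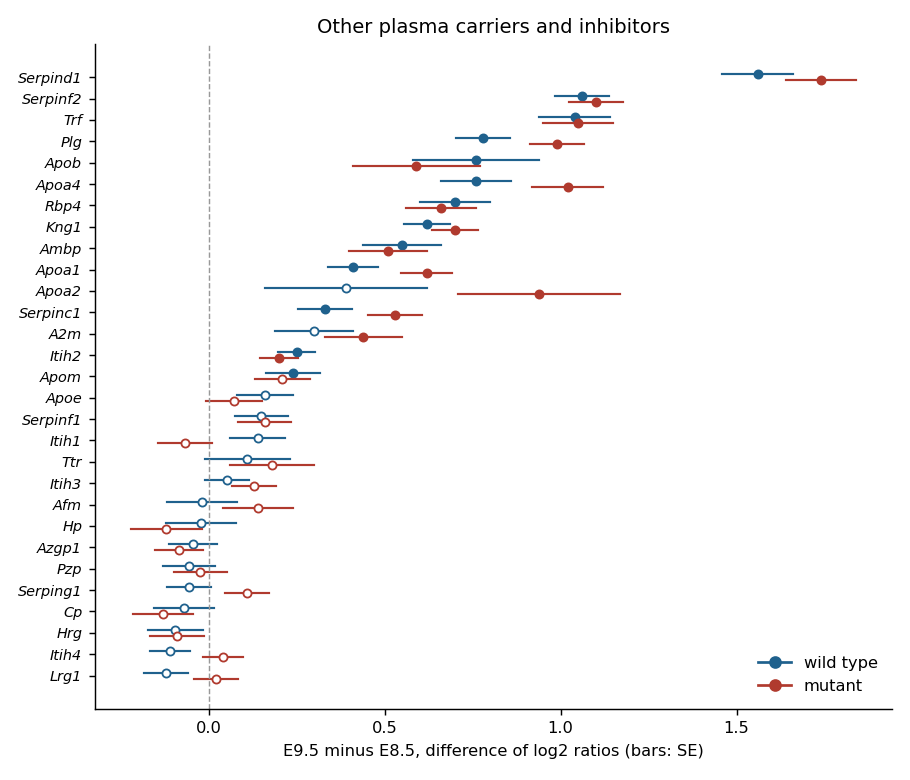
E9.5 minus E8.5 difference of log2 ratios, with SE, for the 29 measured genes among other plasma carriers and inhibitors, in the wild type and the mutant. Filled points passed the test; 13 genes are filled in wild-type and 14 in mutant yolk sacs, all to the right of 0, with Serpind1 at the top.

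Between genotypes this list held 1 gene called at E8.5 and 3 at E9.5, where 1.44% and 1.99% of all genes were called. Ambp, the precursor of alpha-1-microglobulin and bikunin, fell in the mutant at both stages, by 0.77 ± 0.11 and 0.81 ± 0.11 (limma adjusted p = 0.00143 and 0.000934). Both calls were lost with median centring, and that at E8.5 also with the Xist level as a covariate. At E9.5 Serpinc1, antithrombin, rose by 0.47 ± 0.077 and Plg, plasminogen, by 0.33 ± 0.076 (adjusted p = 0.00457 and 0.0368). The Serpinc1 call was lost with Feature Extraction's processed signals, with median centring and in the deposited ratios. Plg lost its call under 14 of 24 alternatives, among them those 3 and Cy5 alone (0.25, adjusted p = 0.188). The Plg call was lost without any 1 of 7 arrays, 4 of them from E9.5, the largest loss being without replicate 2 of mutant E9.5 (0.24, adjusted p = 0.163).

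Among 17 measured of 20 endoderm and liver transcription factors, 5 rose and 2 fell with stage in the wild type and 3 rose and 2 fell in the mutant, where 23.8% and 21.6% of all genes were called in either direction. Cebpb rose by 0.70 ± 0.082 and 0.36 ± 0.082 (limma adjusted p = 4.63e-05 and 0.00671). Tbx3, a T-box repressor, fell by 0.59 ± 0.073 and 0.73 ± 0.073, and Sox17, an early endoderm factor, fell by 0.27 ± 0.082 and 0.40 ± 0.082. The mean log2 ratio of the 17 lay between -0.066 and 0.079 over the 12 arrays. Between genotypes 1 was called, Sox17 at E8.5, where 1.44% of all genes were called. Sox17 was higher in the mutant by 0.39 ± 0.082 (adjusted p = 0.0311). It did not keep that call without any 1 of the 3 wild-type E8.5 arrays or without replicate 1 or 3 of mutant E8.5 (0.34 to 0.41). In all, the call was lost under 11 of 24 alternatives, among them median centring, the deposited ratios and Cy5 alone.

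Receptors and partners of the 10 proteins were measured for 13 of 16 listed genes. Of these, 6 rose in wild-type and 5 in mutant yolk sacs and 0 fell, where 12.8% and 11% of all genes were called higher and 11% and 10.6% lower. Itgb3, 1 of the 6, was not called in Cy5 alone (0.20, limma adjusted p = 0.0892). Fcgrt, the neonatal Fc receptor that rescues albumin and IgG from lysosomes, rose by 0.78 ± 0.074 and 0.96 ± 0.074 (limma adjusted p = 8.18e-06 and 1.14e-06). Plaur, the urokinase receptor, to which vitronectin binds, rose by 0.45 ± 0.068 and 0.54 ± 0.068. Cubn and Lrp2, endocytic receptors of Gc and albumin, and their partner Amn were not called, with wild-type means at E9.5 of 5.39, 3.29 and 3.26. Between genotypes, Itgb5, the beta chain of a vitronectin-binding integrin, fell in the mutant at E9.5 by 0.36 ± 0.068 (adjusted p = 0.0105). That call was lost without replicate 1 or 2 of wild-type E9.5 or replicate 2 of mutant E9.5 (-0.35 to -0.34). In all, the Itgb5 call was lost under 6 of 24 alternatives, among them median centring and the Xist level as a covariate. Of the gelsolin family, 6 of 8 were measured, and Capg, an actin-capping relative, rose with Gsn by 0.40 ± 0.07 and 0.34 ± 0.07 (adjusted p = 0.00104 and 0.00328).

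The profiles most like each gene that rose were named by the highest Pearson r over the 12 arrays, as a description. For Afp they were Selenop (0.989), Gsn (0.987) and Meltf (0.986), and for Gsn they were Afp (0.987), Meltf (0.985) and Gpt2 (0.978). Selenop encodes a plasma carrier of selenium and Meltf a membrane relative of transferrin, and both rose in the wild type, by 0.98 and 1.35. For Clu they included Zcchc14 and Pycrl (0.968 and 0.959), and for Vtn they were Fabp2, Ccl9 and Parp14 (0.93, 0.925 and 0.903). After subtraction of the group means, r between Afp and Gsn was 0.79.

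Over the whole series, 46.7% to 50.1% of probes were well above background in Cy5. RNA of neighbouring tissue was uneven: Prl4a1, a trophoblast hormone, had log2 ratios of 5.70, 4.31 and 3.74 on the replicate 3 arrays of mutant E8.5, wild-type E9.5 and mutant E9.5, and 0.26 to 1.53 elsewhere. Without those arrays the calls of Afp, Gsn and Clu were kept and that of Vtn in the mutant was lost (0.21, limma adjusted p = 0.146). Myl7, of embryonic heart, stood at 0.014 on replicate 2 of wild-type E8.5. Xist was low, at -4.17 to -4.01, on 3 arrays: replicates 2 and 3 of mutant E8.5 and replicate 2 of wild-type E9.5. Each slide held 1 array of each group, always in the same place for a given group, so effects of place and group cannot be told apart.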

How the data were processed

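The 12 deposited array files hold, per the file headers, Agilent Feature Extraction 9.5.1.1 output: mean and median local background intensity of each channel per spot, not normalized. They also hold processed intensity values, which the authors' extraction background-subtracted and dye-normalized within each array, and the log10 ratio of processed Cy5 over Cy3. Flags for saturation, uniformity and signal above background are 0 or 1 per the file headers. A deposited table of the whole series gives log2 ratios from which the authors subtracted each probe's median, with no stated filter, and correlated with the centred per-array ratios with r = 1.

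In R 4.3.3 with limma 3.58.1 and data.table (version 1.17.8), background was removed from the mean intensities with normexp (offset 50), which compresses ratios of dim probes. Log2 ratios were normalized by loess within each array, with control spots at weight 0. Outlier spots, and spots over 20 units below background, were set to missing, and spots of a probe were averaged (Afp has 10). Net intensities in the text are instead the mean intensity of a spot minus its median local background, averaged over all spots of a probe. They had no normexp, loess or removal of spots. A gene was kept if a probe was well above background in Cy5 on all 3 arrays of a group and was read by its brightest probe, which left 13896 genes. Limma estimated 4 group means from all 12 arrays, on 8 residual and 6.22 prior degrees of freedom, with Benjamini-Hochberg adjustment over all genes and a threshold of 0.05. Errors are limma's standard errors except where SD is named. Values for 1 channel alone came from quantile normalization between arrays. The procedure was tested on simulated data with 200 genes changed by 0.5 or 1 (log2). It recovered 89% to 100% of them, and 3.17% to 5.77% of the calls were false. The simulated noise was independent between arrays, so deviations shared by a slide were not covered.

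All 10 genes of the set are named, as are list genes that were called, while others are given with values only; for each gene that rose, the 3 genes of highest correlation are given, except that 2 genes that these rules select are not reported here. The members, the gene lists and the tests were chosen with earlier results of these data known. Replicate numbers match the slides as given by the scan and grid fields of the file headers, while the barcode field of the replicate 3 arrays repeats that of replicate 2, so the slide of replicate 3 rests on the other fields. Arrays of the same number deviated together in 16 of 18 pairs of arrays (r over 0.1; range -0.0065 to 0.42), in all 3 pairs for both stage comparisons and for genotype at E9.5, but not for genotype at E8.5. The number of arrays limits the precision. Alternatives were 11 processing choices and leaving out each of the 12 arrays, plus 1 chosen after seeing the data, leaving out the 3 arrays highest in Prl4a1. Promoter sequences are those of RefSeq, and coordinates in the array files were not used.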

Additional observations from a re-analysis of the deposited data

How the results depend on the processing

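The numbers of the 10 genes called stayed within 1.5 times under each choice tried, and no value of a called gene of the set changed direction. Among all genes, median centring gave 10 calls for genotype at E8.5, 26 at E9.5, 1458 for stage in wild-type and 1756 in mutant yolk sacs, against 200, 277, 3308 and 2998. With Xist as a covariate there were 24 and 134 calls for genotype and 1394 for stage in the mutant. Feature Extraction's processed signals gave 173 and the deposited ratios 181 for genotype at E9.5, and the arrays of the 2 groups alone 123 at E8.5. Without the 3 arrays highest in Prl4a1 there were 86 and 124 calls for genotype, 1347 for stage in the mutant and 2 for the interaction. The interaction had 1 call with the replicate block and 1 in Cy5 alone, against 0.

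Leaving out 1 array gave 93 to 222 genes for genotype at E8.5, 145 to 369 at E9.5, 0 to 5 for the interaction, 2294 to 3315 for stage in wild-type and 2131 to 3368 in mutant yolk sacs, with 2 to 3 and 3 to 4 of the 10 genes called by stage. Under the replicate block (the slide), Fetub in the wild type (-0.23) and Ahsg (-0.27) and Apoh (-0.17) in the mutant became called, and it changed no other call of the 10. With only the arrays of the 2 groups the stage difference of Ahsg in the mutant was called (adjusted p = 0.0441 from limma), and with Xist as a covariate Vtn in the mutant was not (0.26, 0.0622). In Cy5 alone Rbp4 turned, at -0.019 (wild type) and -0.075 (mutant). Of 59 calls in the other gene lists, 32 were kept under every choice. Dyes were not swapped, and the offset compresses the ratios of dim probes such as Fetub and Hpx.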
